A study of Homo sapiens with 6 samples.

Results

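The genes described here encode core parts of the spliceosome, the hnRNP and SR proteins and other splicing regulators, studied in the human embryonic kidney line HEK293 after knockdown of the RNA helicase MOV10. Members were all rows of the expression and half-life table whose symbol starts with HNRNP, HNRPDL, SRSF, SFRS, TRA2, PTBP, SNRP, SF3A, SF3B, PRPF, U2AF or RBM and a digit, together with TIA1, TIAL1 and CLK1 to CLK4. The rule found 66 of 7682 genes. Of these, 25 were core members (9 SNRP, 6 SF3A or SF3B, 7 PRPF and 3 U2AF genes) and 41 were regulators (15 hnRNP genes, 20 RBM genes, 2 CLK kinases, PTBP1, PTBP2, TIAL1 and TRA2A). The table holds 0 symbols that start with SRSF and 0 with SFRS, so the SR family is represented by TRA2A alone. The cells received MOV10 siRNA or a mock transfection, after which new RNA was labelled with 700 µM 4-thiouridine for 60 min. Polyadenylated RNA was sequenced from 3 fractions of each condition: total RNA, the labelled RNA that was made during the labelling, and the unlabelled flow-through. The 6 samples, 1 for each fraction and condition, are given in the table as 2 replicate columns each, with 4 columns of half-lives that the authors computed from the fractions. The labels name no clone and do not say whether the replicate columns came from separate cultures, so p-values measure only the spread between these columns.

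The spliceosome removes introns from pre-mRNA. Small nuclear ribonucleoproteins (snRNPs) carry a ring of Sm proteins and their own factors, recognise the splice sites and the branch point, and form the catalytic centre together with PRPF proteins. hnRNP and SR proteins bind the pre-mRNA and repress or favour splice sites, and CLK kinases phosphorylate SR proteins. Many RBM proteins act in the same choice of exons, while others work in nuclear RNA decay, in the nucleolus or on translation.

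Expression values were normalised by the authors, no unit is named, and none was below 1.00, so the depth of the libraries is unknown and expression levels are compared only within a gene. Tests covered the 6064 genes whose total RNA averaged at least 5 in each condition, and 65 of the 66 members passed this minimum. RBM20, a regulator known from titin splicing in heart muscle, did not: its total RNA was 3.71 and 3.85 in the siRNA columns and 4.76 and 4.99 in the mock columns. All log2 changes are siRNA minus mock on the log2(value + 1) scale (half-lives: log2), relative to the median gene of each column, since the median gene itself shifted by 0.20 in half-life and 0.14 in labelled RNA before this centring. MOV10 total RNA was 3.53 and 3.64 in the siRNA columns, against 13.1 and 14.6 in the mock columns. Of 19 markers of other cell types, such as PTPRC and ALB, 3 were listed (HBA1, ACTA2 and MBP), and of 6 genes reported for HEK293 cells NEFL, VIM and CDH2 were listed. Some members have near-identical copies (HNRNPA1L2 and HNRNPA1, RBM4 and RBM4B, the U2AF1 gene copies), and neither the division of reads between copies nor the use of strand in counting is stated, so their values are uncertain. These are bulk libraries, in which fewer expressing cells and less RNA per cell cannot be told apart.

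Splicing factor mRNAs covered a wide range of stability in mock-transfected cells. Core and regulator genes had nearly the same middle in the deposited half-lives, but not in recomputed ones. The mean mock half-life had a median of 770 min in the 25 core members and 768 min in the 40 regulators past the minimum, against 777 min over all 6064 genes. Core members ran from 310 to 1459 min and regulators from 156 to 1584 min. In half-lives recomputed from the fractions, the core median was 756 min and the regulator median 602 min, against 643 min for all genes. Of the 65 members, 13 lay below the first quartile of all genes (451 min) and 10 above the upper quartile (1208 min).

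**Figure D1:**
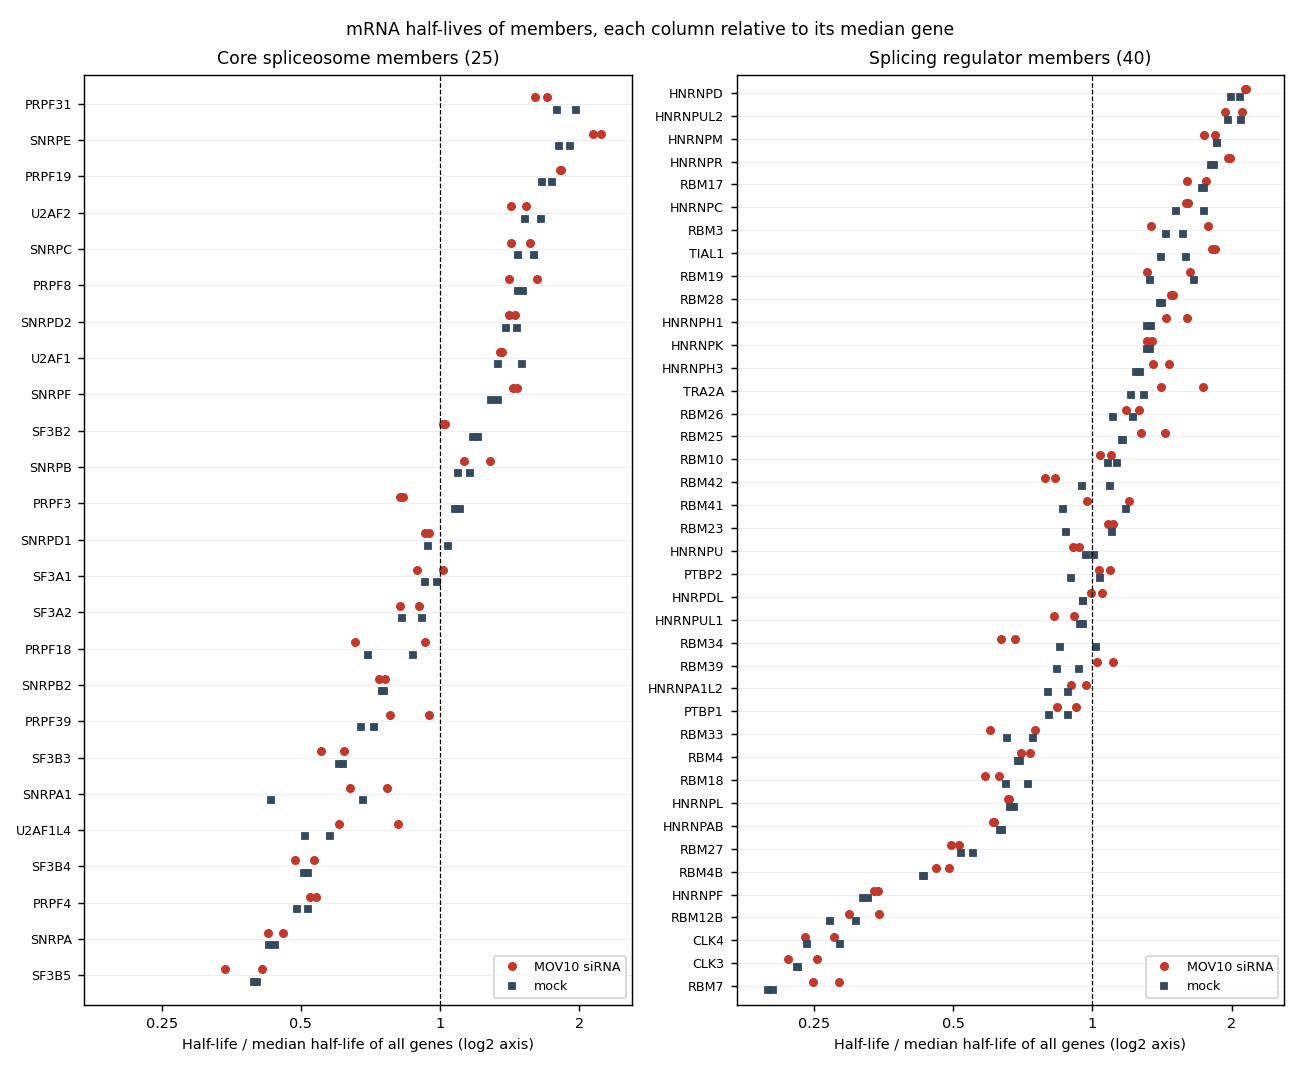
Half-life of each member divided by the median half-life of all 6064 genes in the same column, on a log2 axis, with 2 MOV10 siRNA columns (circles) and 2 mock columns (squares) per gene. Core members are on the left and regulators on the right, both in the order of their mock half-life. PRPF3 and RBM34 show both siRNA columns clearly below both mock columns, and RBM7 lies at the short end with both siRNA columns above mock. On this scale the columns did not overlap in 50.8% of the 65 members and 55.8% of all genes.

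Within the snRNP proteins the range was wide. SNRPE, a subunit of the Sm ring, had the longest half-life, with 1702 and 2206 min in the siRNA columns and 1340 and 1546 min in the mock columns. SNRPA, the protein that binds a stem-loop of the U1 RNA, had the shortest, with 324 and 471 min after siRNA against 326 and 345 min in mock. The other Sm ring genes among the members, SNRPB, SNRPD1, SNRPD2 and SNRPF, had mean mock half-lives of 873, 770, 1110 and 1018 min. SNRPD3 and SNRPG were not listed. Among the branch-point factors, SF3B2 was longest (776 and 1052 min after siRNA, 873 and 976 min in mock) and SF3B5 shortest (262 and 424 min, against 294 and 326 min in mock). Only 1 of the 6 SF3 genes, SF3B2, lay above the median of all genes. PRPF31 and PRPF4, both proteins of the tri-snRNP, marked the ends of the PRPF group, with mean mock half-lives of 1459 and 392.1 min. U2AF2, which binds the polypyrimidine tract, was at 1228 min, and U2AF1L4, a paralogue of its partner U2AF1, at 421 min.

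In the deposited half-lives both ends of the whole range were regulators, while in recomputed ones the longest was a core member (1476 min, against 1349 min for the longest regulator). In the deposited values 8 of the 15 hnRNP genes lay above the median of all genes. HNRNPD, a protein that binds AU-rich RNA, was at 1642 and 2200 min after siRNA and 1480 and 1688 min in mock, and lay above 86.9% of all genes in mock. HNRNPF, which binds runs of G, was the shortest of its family, at 257 and 354 min after siRNA and 243 and 259 min in mock. The kinases CLK3 (168 and 261 min after siRNA, 170 and 187 min in mock) and CLK4 (211 and 246 min, against 179 and 230 min in mock) did not differ between conditions beyond their spread. RBM7, a subunit of the nuclear exosome targeting complex, had the shortest mean mock half-life of all members (156 min), and RBM17, a splice-site choice factor, the longest of the RBM genes (1347 min). TIAL1 and PTBP1 were at 1159 and 654 min.

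Regulators had longer annotated 3′ UTRs than core members and more often held an AU-rich sequence there. The longest 3′ UTR per gene in GENCODE 29 had a median length of 397 bases in the core members, 1625 bases in the 39 regulators with one, and 1368 bases over the 5664 genes with one. These UTRs may not be the ones used in HEK293 cells. The AU-rich sequence TATTTAT, searched on the transcript strand, was held by 3 of 25 core members, 18 of 39 regulators (46.2%) and 35.0% of all genes. The part of UTR length in these shares was not tested. The 4 members with the shortest mock half-lives, RBM7, CLK3, CLK4 and RBM12B, all held it, in UTRs of 6210, 10287, 1440 and 4049 bases. HNRNPF, the fifth, held 0 copies in a UTR of 1020 bases. Long-lived members held it too, such as HNRNPR (5 copies, mean mock half-life 1409 min), RBM17 (1 copy, 1347 min) and HNRNPC (3 copies, 1267 min). Half-lives with and without the sequence were not compared. The copies in RBM7, CLK3 and CLK4 are shown because these genes lie at the short-lived end of the regulators. They were chosen after the half-lives were seen, the capitals mark TATTTAT, and the coordinates are GRCh38.
RBM7, chr11:114406480-114406509, plus strand: tcatatactaaTATTTATccacaggcagaa
RBM7, chr11:114407249-114407278, plus strand: acaaagagtagTATTTATgtatatatatgt
RBM7, chr11:114411161-114411190, plus strand: ttattttaattTATTTATggcagagcctca
CLK3, chr15:74642617-74642646, plus strand: atttcttcaccTATTTATcaggactctttc
CLK4, chr5:178622568-178622597, minus strand: tggaggtaataTATTTATatagaattaaag
Over the 64 tested members with a UTR, mock half-life and UTR length had a Spearman value of -0.08, and over the 5664 genes -0.11. These are descriptions across genes that share the same libraries.

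Did MOV10 knockdown change how fast these mRNAs decayed? In half-life, 2 of 65 members fell and 0 rose, against 4.27% of all genes called lower and 1.88% called higher, or 6.15% in either direction (limma, Benjamini-Hochberg adjusted p under 0.05). The members' share of lower calls, 3.1%, was close to that background. At an unadjusted p under 0.05, 11 members passed (5 core and 6 regulators), or 16.9%, against 24.3% of all genes. The genes that fell were PRPF3, a core protein of the U4/U6 snRNP, and RBM34, an RNA-binding protein.

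PRPF3 half-life was 635 and 842 min in the siRNA columns, against 800 and 894 min in the mock columns. Because the whole second siRNA column ran high, the difference shows relative to the median gene, where the siRNA columns were the lower pair. The log2 change was -0.40 (SE 0.09, limma, Benjamini-Hochberg adjusted p = 0.0435). RBM34 was at 519 and 653 min after siRNA, against 632 and 826 min in mock, a log2 change of -0.51 (SE 0.11, limma, Benjamini-Hochberg adjusted p = 0.0499). Its columns did not overlap relative to the median gene either, which held for 55.8% of all genes in half-life. Both genes kept their direction but missed the threshold when any 1 column was left out (limma, Benjamini-Hochberg adjusted p of 0.0882 to 0.193 for PRPF3 and 0.083 to 0.213 for RBM34). Both calls were also lost with no minimum, without the trend in limma, with the replicate number as a block, and without centring, where the changes were -0.21 and -0.31. In recomputed half-lives both passed, with changes of -0.44 and -0.54, and with a minimum of 20 RBM34 passed and PRPF3 was not tested.

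The next members by size did not pass. RBM7 was at 216 and 256 min after siRNA, against 151 and 161 min in mock, with both siRNA columns higher (a change of 0.40 with an SE of 0.10, limma, Benjamini-Hochberg adjusted p = 0.0706). SNRPA1, the A′ protein of the U2 snRNP, had a change of 0.37, with 588 and 657 min after siRNA and 505 and 349 min in mock, and its columns overlapped relative to the median gene. U2AF1L4 and TRA2A had changes of 0.36 and 0.32 (limma, Benjamini-Hochberg adjusted p = 0.197 and 0.172). TRA2A, which binds exonic enhancers as SR proteins do, was at 1324 and 1451 min after siRNA, against 961 and 981 min in mock, and its groups did not overlap. RBM42 was at 603 and 854 min after siRNA and 811 and 768 min in mock (-0.33, limma, Benjamini-Hochberg adjusted p = 0.108).

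The 7-base sequence TACTGCA was picked out by an earlier search in the half-lives of these same data, so its presence in a member is a description and not independent support. It was held, on the transcript strand, by the longest 3′ UTR of 9 of 64 members (14.1%) and of 665 of 5664 genes (11.7%). In the core 1 of 25 members held it, PRPF3, and in the regulators 8 of 39. The median half-life change of all genes was -0.065 with the sequence and 0.0068 without it, and in the members -0.0078 and 0.017. The sites are printed for PRPF3, whose half-life fell, and for 3 regulators whose half-lives did not pass the test, RBM7, RBM25 and HNRNPUL2. Those of RBM18, HNRNPU and RBM17 (half-life changes of -0.18, -0.097 and -0.048) and of RBM23 and RBM28 (0.16 and 0.079) are not printed. Of the 9 members with the sequence, 5 had a negative half-life change. Capitals mark TACTGCA, and coordinates are GRCh38.
PRPF3, chr1:150352980-150353009, plus strand: gacTACTGCAagcccttgcctctcctccct
RBM7, chr11:114409347-114409376, plus strand: acgaagattaaTACTGCAtgtttgtttttg
RBM25, chr14:73121645-73121674, plus strand: ttttcttaacaTACTGCActgttcttaagc
RBM25, chr14:73121837-73121866, plus strand: gatgtactctgTACTGCAtaacatctccag
HNRNPUL2, chr11:62713772-62713801, minus strand: cagacaccacaTACTGCAgcagttcctagt
The PRPF3 site starts at base 4 of a UTR of 216 bases, and of the 10 sites in members it was the 1 followed by A, a feature noticed after the values were seen. Over all genes, TACTGCA followed by A was held by 176 genes, with a median half-life change of -0.14 and 22.7% called lower. The 489 genes that held it with no such A had a median of -0.046 with 11.7% called lower, and the 4999 without it had 3.1%. These medians and shares come from the same half-lives in which TACTGCA was found. They are therefore descriptions too, and no independent support for the PRPF3 site. RBM34, the other member that fell, holds 0 copies in a UTR of 530 bases.

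Total RNA changes of the members were modest, between -0.39 and 0.30 on the log2 scale. Of 65 members 9 rose and 6 fell, against 12.9% of all genes called higher and 14.3% called lower (limma, Benjamini-Hochberg adjusted p under 0.05), and 21 members (32.3%) passed an unadjusted 0.05, against 39.3% of all genes. In the core 1 rose (PRPF39) and 4 fell (PRPF3, SF3B2, SNRPB2 and SF3B5). In the regulators 8 rose (RBM41, RBM12B, RBM7, HNRNPA1L2, TRA2A, TIAL1, HNRNPF and RBM39) and 2 fell (RBM34 and HNRNPUL1). The difference between the classes in these counts was not tested. Without centring on the median gene, 2 members rose and 4 fell. With 1 column left out the numbers ran from 1 to 9 for higher and from 2 to 8 for lower. Without either siRNA column 1 rose and 2 fell, and without mock replicate 2 the rises were 2.

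PRPF3 had the largest decrease, with total RNA of 12.9 and 13.1 in the siRNA columns, against 17.1 and 18.0 in the mock columns. Its log2 change was -0.39 (SE 0.08, limma, Benjamini-Hochberg adjusted p = 0.00218), and it passed whichever column was left out. RBM34 was at 35.1 and 33.3 after siRNA, against 46.1 and 43.1 in mock (-0.35, SE 0.08, limma, Benjamini-Hochberg adjusted p = 0.00407), and also passed whichever column was left out. For both genes the groups were well apart, while 64.4% of all genes had groups that did not overlap relative to the median gene. SF3B2, a subunit of the branch-point complex SF3B, was at 68.0 and 66.8, against 79.7 and 86.8 in mock (-0.28). SNRPB2, the B″ protein of the U2 snRNP, was at 43.0 and 43.7, against 51.5 and 52.9 in mock (-0.24), and SF3B5, another subunit of that complex, at 133 and 140, against 155 and 165 in mock (-0.21). SF3B2 and SNRPB2 missed the threshold without either siRNA column, and SF3B5 without 3 of the 4 columns.

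Increases were of similar size, with the 5 largest between 0.22 and 0.30 on the log2 scale. RBM41 was at 11.8 and 13.7 after siRNA, against 10.6 and 10.1 in mock (0.30, SE 0.09, limma, Benjamini-Hochberg adjusted p = 0.0295). PRPF39, a protein associated with the U1 snRNP, was at 15.4 and 14.1, against 12.06 and 12.03 in mock (0.29), and RBM12B at 11.5 and 11.5, against 9.56 and 9.22 in mock (0.28). RBM7 was at 10.0 and 10.8, against 8.35 and 9.13 in mock (0.25), and HNRNPA1L2 at 19.6 and 18.8, against 16.0 and 17.1 in mock (0.22). In each of these 5 genes both siRNA values were above both mock values. Relative to the median gene, the columns did not overlap in 64.4% of all genes in total RNA. HNRNPA1L2 is a retrocopy of HNRNPA1, and reads shared between the copies were not separated here. HNRNPA1 itself is not among the members, so the HNRNPA1L2 values in all fractions cannot be assigned to either copy. All 5 calls were lost without mock replicate 2 and without 1 or both of the siRNA columns. Those of HNRNPA1L2 and RBM7, and that of TIAL1, were lost whichever column was left out.

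**Figure D2:**
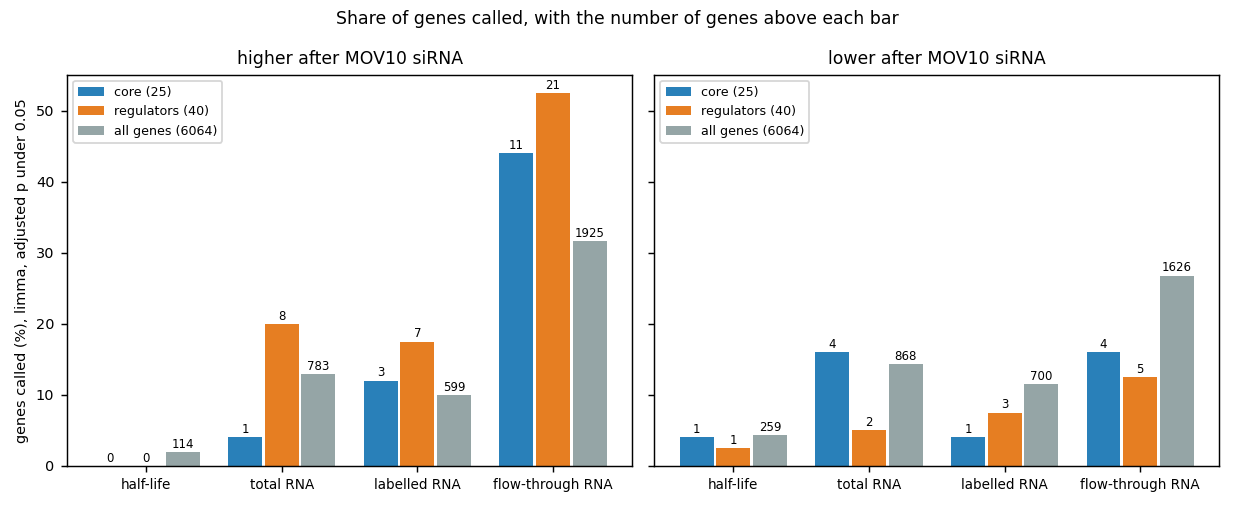
Percent of core members (25), regulators (40) and all genes past the minimum (6064) called higher (left) or lower (right) after MOV10 siRNA, in half-life and in each RNA fraction. The number of genes stands above each bar: in total RNA 1 core member and 8 regulators were higher and 4 and 2 lower, and in flow-through RNA 11 and 21 were higher and 4 and 5 lower.

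Labelled RNA, the product of synthesis and decay within the labelling time, rose in 10 members and fell in 4, against 9.88% of all genes called higher and 11.5% called lower (limma, Benjamini-Hochberg adjusted p under 0.05). At an unadjusted 0.05, 25 members (38.5%) passed, close to the 35.1% of all genes. The genes that rose were PRPF3, SNRPD1 and SF3B2 in the core and RBM34, HNRNPA1L2, RBM27, RBM26, RBM28, HNRNPC and HNRNPUL2 among regulators. SNRPA in the core and RBM7, TIAL1 and PTBP1 among regulators fell. These directions are relative to the median gene: without centring 23 members were called higher and 0 lower. Without siRNA replicate 2 the rises were 6, and without mock replicate 2 the decreases were 0.

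The largest increase was again in PRPF3, whose labelled RNA was 13.3 and 14.7 in the siRNA columns, against 9.43 and 7.91 in the mock columns (a change of 0.50 with an SE of 0.09, limma, Benjamini-Hochberg adjusted p = 0.00342). SNRPD1, a subunit of the Sm ring, was at 128 and 134, against 96.1 and 82.6 in mock (0.41), and RBM34 at 37.4 and 38.1, against 29.7 and 22.1 in mock (0.40). HNRNPA1L2 was at 16.97 and 18.2, against 12.8 and 10.9 in mock (0.40). RBM27, a protein tied to the nuclear exosome, was at 22.6 and 22.1, against 15.3 and 15.1 in mock (0.39). Separation of the columns was common: relative to the median gene, it held in 62.3% of all genes in labelled RNA. All 5 had both siRNA values above both mock values, and all but RBM34, which was lost without mock replicate 2, passed whichever column was left out.

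The decreases in labelled RNA also showed before centring. Relative to the median gene, the siRNA and mock columns did not overlap in 62.3% of all genes in this fraction. RBM7 was at 16.8 and 19.6 after siRNA, against 21.0 and 21.1 in mock (a change of -0.34 with an SE of 0.09, limma, Benjamini-Hochberg adjusted p = 0.0182). TIAL1, which binds U-rich RNA, was at 18.0 and 19.7, against 20.3 and 21.9 in mock (-0.29), and SNRPA at 151 and 136, against 162 and 155 in mock (-0.28). PTBP1, the polypyrimidine tract-binding repressor of exons, was at 121 and 110, against 128 and 126 in mock (-0.28). These 4 groups did not overlap, but each call was lost without at least 2 of the 4 columns.

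Labelled and total RNA moved in opposite directions in 5 of the 6 members called in both. Over all genes this held for 89 of the 436 called in both (20.4%). The difference was not tested, rests on 6 members, and 4 of these 6 total RNA calls were lost without either siRNA column. PRPF3, RBM34 and SF3B2 rose in labelled and fell in total RNA, while RBM7 and TIAL1 fell in labelled and rose in total RNA. HNRNPA1L2 rose in both. The flow-through values of the opposite-moving genes were closer together: PRPF3 was at 25.1 and 27.7 after siRNA, against 26.0 and 23.8 in mock, and its groups overlapped. SF3B2 flow-through RNA was 124 and 122, against 118 and 115 in mock (log2 change 0.10, limma, Benjamini-Hochberg adjusted p = 0.0601). RBM34 fell there by a small amount, with 59.8 and 57.8 against 67.4 and 64.4 in mock (-0.15, limma, Benjamini-Hochberg adjusted p = 0.0302). Each fraction was scaled on its own, so absolute amounts cannot be summed across fractions.

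**Figure D3:**
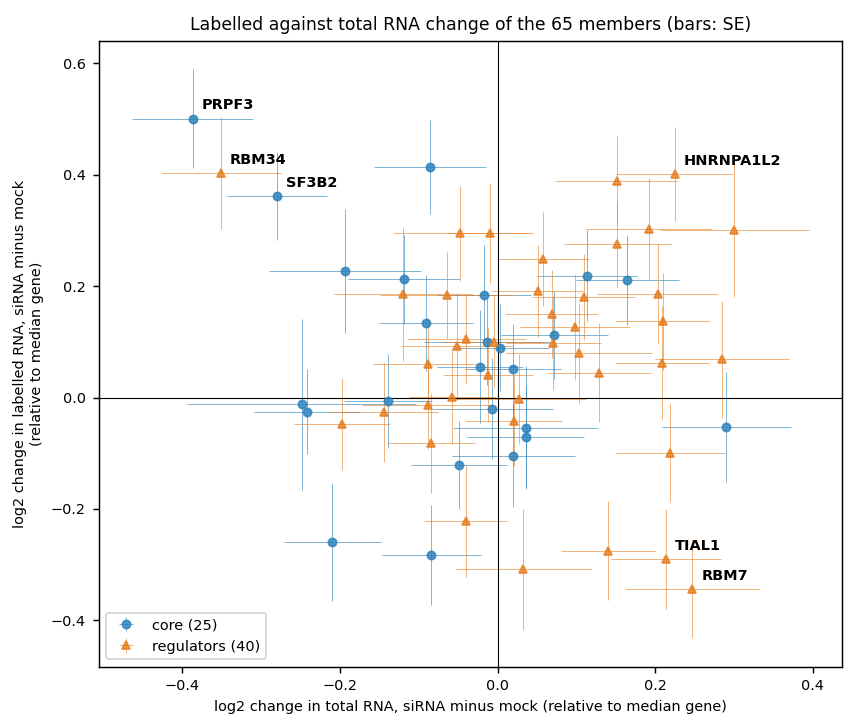
Log2 change in labelled RNA against log2 change in total RNA (siRNA minus mock, relative to the median gene) for the 65 members past the minimum, with the SE of each as bars. Circles are core members and triangles are regulators. Named genes were called in both fractions: PRPF3, RBM34 and SF3B2 are at the upper left, RBM7 and TIAL1 at the lower right and HNRNPA1L2 at the upper right.

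**Figure D4:**
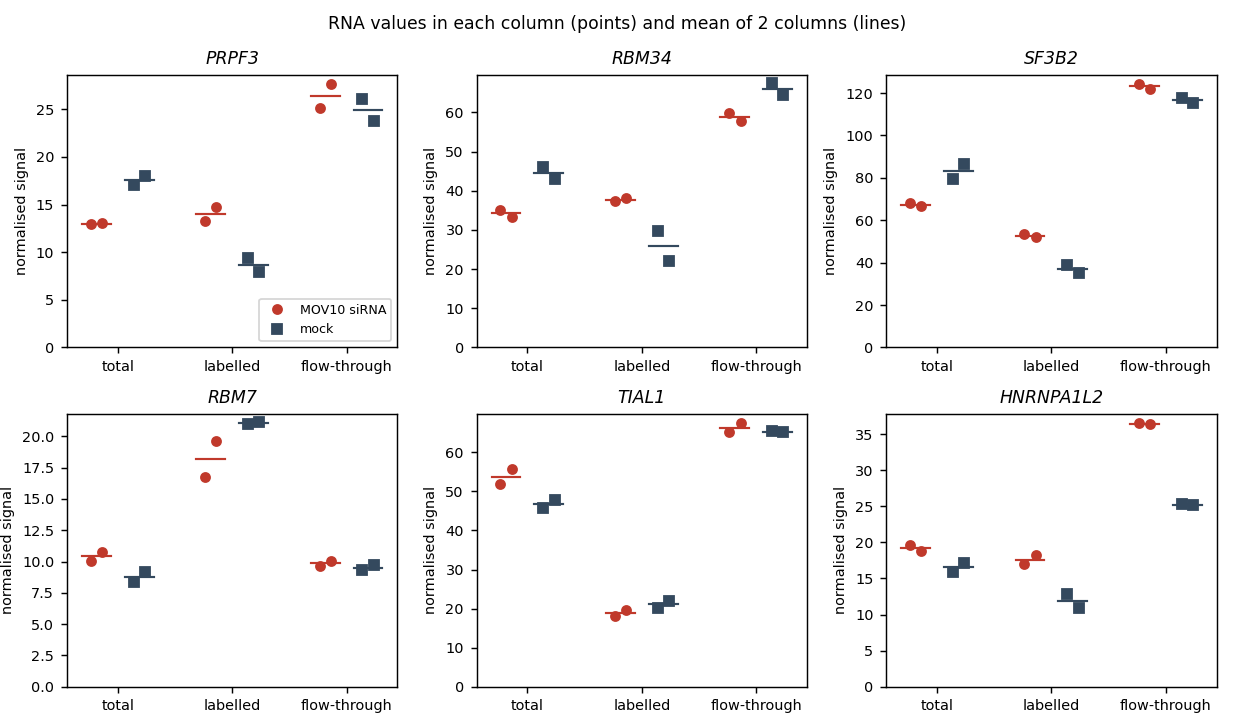
Normalised signal of the 6 members called in both labelled and total RNA, in each fraction, for 2 MOV10 siRNA columns (circles) and 2 mock columns (squares), with lines at their means. PRPF3, RBM34 and SF3B2 are lower in total and higher in labelled RNA after siRNA, and HNRNPA1L2 is higher in all 3 fractions.

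In flow-through RNA, the pool that predates the label, 32 of 65 members rose and 9 fell, against 31.7% of all genes called higher and 26.8% called lower (limma, Benjamini-Hochberg adjusted p under 0.05). The share of members called higher was 49.2% and of those called lower 13.8%. At an unadjusted 0.05, 45 members (69.2%) passed, close to the 63.3% of all genes. In the hnRNP family 10 of 15 rose and 2 fell (HNRNPL and HNRNPUL1), in the RBM family 10 of 19 rose and 2 fell (RBM34 and RBM42), and in the PRPF group 4 of 7 rose and 0 fell. The median change was 0.12 in the members and 0.034 in all genes. Without centring 27 rose and 9 fell. With 1 column left out, 21 to 32 rose and 7 to 11 fell, the fewest rises without mock replicate 2.

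HNRNPA1L2 had the largest rise, at 36.5 and 36.4 in the siRNA columns, against 25.3 and 25.1 in the mock columns (a change of 0.53 with an SE of 0.04, limma, Benjamini-Hochberg adjusted p = 0.000408). The next largest were RBM genes. RBM41 was at 17.2 and 15.7, against 11.96 and 11.4 in mock (0.48), and RBM25, a regulator of alternative exons, at 40.4 and 40.8, against 29.8 and 29.7 in mock (0.45). RBM26, the paralogue of RBM27, was at 26.6 and 28.3, against 21.0 and 20.2 in mock (0.41). The nucleolar protein gene RBM28 was at 26.8 and 27.7, against 20.9 and 20.9 in mock (0.38). In this fraction the columns did not overlap, relative to the median gene, in 81.1% of all genes. All 5 passed whichever column was left out, and their groups were far apart.

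The largest decreases in flow-through RNA held 3 core genes. RBM42 was at 176 and 172 after siRNA, against 251 and 224 in mock (a change of -0.43 with an SE of 0.05, limma, Benjamini-Hochberg adjusted p = 0.00136). SF3B5 was at 151 and 161, against 211 and 212 in mock (-0.42), SNRPA at 165 and 168, against 210 and 209 in mock (-0.31), and U2AF2 at 141 and 142, against 178 and 167 in mock (-0.27). PTBP1 was at 213 and 210, against 259 and 246 in mock (-0.24). These 5 calls held whichever column was left out. SNRPA and PTBP1 were the members that fell in labelled and flow-through RNA alike, with total RNA changes of -0.084 and 0.14 that did not pass. For both genes the total RNA change lay above those of labelled and flow-through RNA, and the reason was not tested.

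Core and regulator genes differed little in their median changes. In total RNA the core median was -0.022 and the regulator median 0.055, against 0.011 for all genes, a core minus regulator difference of -0.077. Computed for each of the 4 pairs of a siRNA with a mock column, this difference ran from -0.14 to -0.047. In half-life the medians were -0.0042 and 0.052 (difference -0.056, from -0.092 to -0.0094 over the 4 pairs), and in flow-through RNA 0.095 and 0.16 (difference -0.068, from -0.063 to -0.0082). In labelled RNA the difference of -0.040 had no stable sign, from -0.076 to 0.043. RBM genes are mixed in function, and without them the regulator medians were 0.069 in total RNA and 0.060 in half-life. Members are not replicates, and the differences are descriptions with no test.

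Of the 65 members, 46 (70.8%) were called in at least 1 of the 4 measures and 19 in none, a share close to the 67.1% of all genes called in at least 1. The 19 were the core genes PRPF18, PRPF31, SF3B4, SNRPB, SNRPC, SNRPE and U2AF1, both CLK kinases, HNRNPD, HNRNPK, HNRNPM, PTBP2 and 6 RBM genes. HNRNPK, a poly(C)-binding hnRNP, is an example, with total RNA of 348 and 338 after siRNA, against 360 and 364 in mock (log2 change -0.057), and half-lives of 1028 and 1351 min, against 972 and 1076 min in mock (0.010).

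Other genes of the pathway were taken from 2 lists. Of 59 other spliceosome components 44 passed the minimum: 0 changed in half-life (9 passed an unadjusted 0.05), 5 rose and 2 fell in total RNA, 11 rose and 0 fell in labelled RNA, and 28 of the 44 rose and 2 fell in the flow-through fraction. Their median changes were 0.062, 0.071, 0.17 and 0.24 in that order of measures. In labelled RNA MFAP1, a component of the precatalytic spliceosome, was at 45.8 and 48.9 after siRNA, against 33.8 and 26.8 in mock (log2 change 0.50), and the tri-snRNP helicase DDX23 was at 36.6 and 37.5, against 25.6 and 21.7 in mock (0.49). EFTUD2, the GTPase of the U5 snRNP, was at 16.4 and 17.4, against 11.7 and 10.9 in mock (0.40).

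Of 44 other splicing regulators 26 passed the minimum. Half-life fell in 3 (MBNL1, WBP11 and SYNCRIP), or 11.5%, and rose in 0, against 4.27% of all genes called lower and 1.88% called higher. SYNCRIP, an hnRNP-like protein also called hnRNP Q, was at 585 and 778 min after siRNA, against 815 and 932 min in mock (a change of -0.57 with an SE of 0.09, limma, Benjamini-Hochberg adjusted p = 0.0187). In total RNA 2 of the 26 rose and 5 fell (7.7% and 19.2%), against 12.9% and 14.3% of all genes. The labelled fraction had 3 higher and 5 lower calls (11.5% and 19.2%, all genes 9.88% and 11.5%). By flow-through values 9 were called higher and 11 lower (34.6% and 42.3%), while the shares of all genes were 31.7% and 26.8%. None of these differences was tested. In labelled RNA ELAVL1, the AU-rich element binding protein HuR, was at 41.8 and 45.03 after siRNA, against 49.4 and 46.6 in mock (log2 change -0.28).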

How the data were processed

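TruSeq libraries were made from poly(A)+ RNA of the 3 fractions and read for 100 cycles, per the labels' protocols. Alignment used TopHat2 2.06 and hg18, per the submitters' processing notes. No source used here names the tool that made the expression values. The authors' table has 12 columns of normalised signal and 4 of half-lives. The half-life unit was taken as minutes, because half-lives recomputed from the fractions (total least squares weights, first-order decay over 60 min) had medians of 504 to 587 min, against 657 to 900 min deposited, with Pearson correlations of 0.968 to 0.982 on the log2 scale. Depth is unknown, so no counting interval is given.

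Values were taken as log2(value + 1), half-lives as log2, centred per column. The added 1 understates changes of low genes. limma 3.58.1 (R 4.3.3, moderated variances with a trend) compared 2 siRNA with 2 mock columns over 6064 genes, with Benjamini-Hochberg adjustment at 0.05. It was also run on simulated data with seeded changes, as a check of the code. The noise there was drawn independently for each column, so that run does not bear on the calls made here. UTRs came from GENCODE 29 (GRCh38) by symbol or older symbol, for 65 of 66 members.

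Named members are those called in half-life, the 5 largest called changes per direction in each fraction, and the longest and shortest mock half-life of each family; others were named after their values were seen, as were the TATTTAT search and the base after TACTGCA. The members and lists were chosen with earlier results of these data known. Alternatives were another or no minimum, no centring, no trend, no added 1, recomputed half-lives, the replicate number as a block, and leaving out each column.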

Additional observations from a re-analysis of the deposited data

How the results depend on the processing

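Counts of members called moved more than the values behind them. The 2 lower calls in half-life became 0 with no minimum, with no centring, without the trend and with the replicate block, and 1 with a minimum of 20. In total RNA the 9 higher calls became 4 and the 6 lower calls 3 with a minimum of 20. The higher calls became 2 without centring and 5 without the trend, and the replicate block gave 10 lower calls. In labelled RNA the 10 higher calls became 5 with a minimum of 20 and 23 without centring. The 4 lower calls became 2 with no minimum, 0 without centring, 2 without the trend and 7 with the replicate block. The 32 higher calls in flow-through RNA became 21 with a minimum of 20. That minimum also leaves fewer members to call. The other causes were not tested. With 1 column left out, a fit in which the lone column is assumed to vary like the other group gave 0 lower half-life calls. It gave 1 to 9 higher and 2 to 8 lower calls in total RNA, 6 to 10 and 0 to 3 in labelled RNA, and 21 to 32 and 7 to 11 in flow-through RNA. The core minus regulator median then ran from -0.12 to -0.016 in half-life, from -0.13 to -0.063 in total RNA, from -0.064 to -0.038 in flow-through RNA and from -0.041 to 0.038 in labelled RNA, where it turned to 0.038 without siRNA replicate 2. The replicate numbers are not known to pair columns: deviations of same-numbered columns correlated across genes at -0.069 (half-life), 0.046 (total RNA), -0.037 (labelled) and 0.11 (flow-through). Omitting the added 1 left the counts in each RNA fraction as they were, and recomputed half-lives gave 2 lower calls, with a regulator median of 602 min in mock in place of 768 min.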
